A study of Homo sapiens with 32 samples.

Results

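New RNA in HUH7 cells at 80 minutes of release from a mitotic block was compared with that of an asynchronous culture of the same line, gene by gene. The pair was taken by group label and covered 6 of the 32 samples in the series, 3 labelled 80 minutes and 3 labelled asynchronous. HUH7 is an established human hepatoma line. The 80 minute cells had been held in 2 mM thymidine for 24 hours, which stops cells at the entry to DNA synthesis. They then spent 2 hours without it and 16 hours in nocodazole at 0.06 ug/mL, which blocks the mitotic spindle, and were shaken off the dish and replated without the drug. The asynchronous cells are labelled as an unsynchronised population, and the protocol describes the blocks for arrested cells alone. Both groups received 0.5 mM ethynyl uridine (EU), a uridine analogue taken up into RNA while it is made, for 40 minutes. The EU-labelled RNA was captured on beads, and libraries that keep strand were prepared from it after ribosomal RNA was depleted. No source used here says whether 80 minutes marks the start or the end of the pulse.

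The authors' table gives 1 value per transcript and group in FPKM, fragments scaled to feature length and library size. The 3 libraries of each group, labelled A, B and C, stand behind 1 pooled column. No spread between libraries could be computed, so each difference below sets 1 pooled value against another with no replicate check and no test. Read depth is not given, and low values did not fall on whole steps: at 80 minutes 72 of 555 low microRNA values (13%) lay within 0.05 of a whole multiple of the most frequent one, and 72 of 532 (13.5%) did so in the asynchronous column. Another 11 samples, without EU or with spike-in RNA, were not used here, and the values below therefore stand without a measured background. No source used here says whether the asynchronous column includes spike-in libraries. FPKM is a share of the captured RNA and carries no measure of total transcription. The earlier block and the stage of the cell cycle cannot be told apart in this pair, and in these bulk samples neither can fewer transcribing cells and less RNA per cell.

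At mitotic exit the chromatids separate, the nuclear envelope re-forms and transcription, which is low on condensed chromosomes, resumes before the cell commits to another round of division. Cells in G1 hold the genes for DNA synthesis under the retinoblastoma and E2F proteins until S phase, and the genes for mitosis until G2. An asynchronous culture contains all of these stages at once. Hepatoma cells also transcribe part of the hepatocyte programme, which includes albumin, alpha-fetoprotein, fibrinogen and apolipoproteins.

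Among 24242 genes, 17908 had at least 10 FPKM in either column and entered the comparison, and 6334 did not. Near that limit, HAPLN2, at 10.002 FPKM at 80 minutes against 4.82 FPKM in the asynchronous culture, was included. ARHGEF33, at 9.99 FPKM against 4.68 FPKM, was not. Differences are log2 ratios of FPKM + 1, 80 minutes over asynchronous, which understate the difference of low genes. A gene is called higher or lower where the ratio is at least 2-fold. At 80 minutes 3815 genes (21.3%) were higher and 2385 (13.3%) were lower. At least 4-fold, 1159 genes (6.47%) were higher and 629 (3.51%) were lower. Conversely, 4061 genes (22.7%) were within 1.25-fold of the asynchronous level.

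The median over all compared genes was 0.26 log2 units above the asynchronous culture, or 1.2-fold. Of the genes at least 2-fold apart, 61.5% were higher at 80 minutes as deposited. Counted relative to the all-gene median, 2718 genes (15.2%) were higher and 3314 (18.5%) lower, so that 45.1% of the 2-fold differences were upward. Which direction held more genes thus depended on the scaling, and list medians below are given relative to the all-gene median. Counts of list members are as deposited, and the relative counts follow where they move by over 1.5 times or turn the balance. The limit of 10 FPKM was met at both times by 15494 genes, of which 2828 (18.3%) were higher and 1991 lower. It was met at 80 minutes alone by 1822 genes, which had to differ in that direction, and 987 of them were at least 2-fold higher. In the asynchronous culture alone it was met by 592 genes, and 394 of them were at least 2-fold lower.

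**Figure D1:**
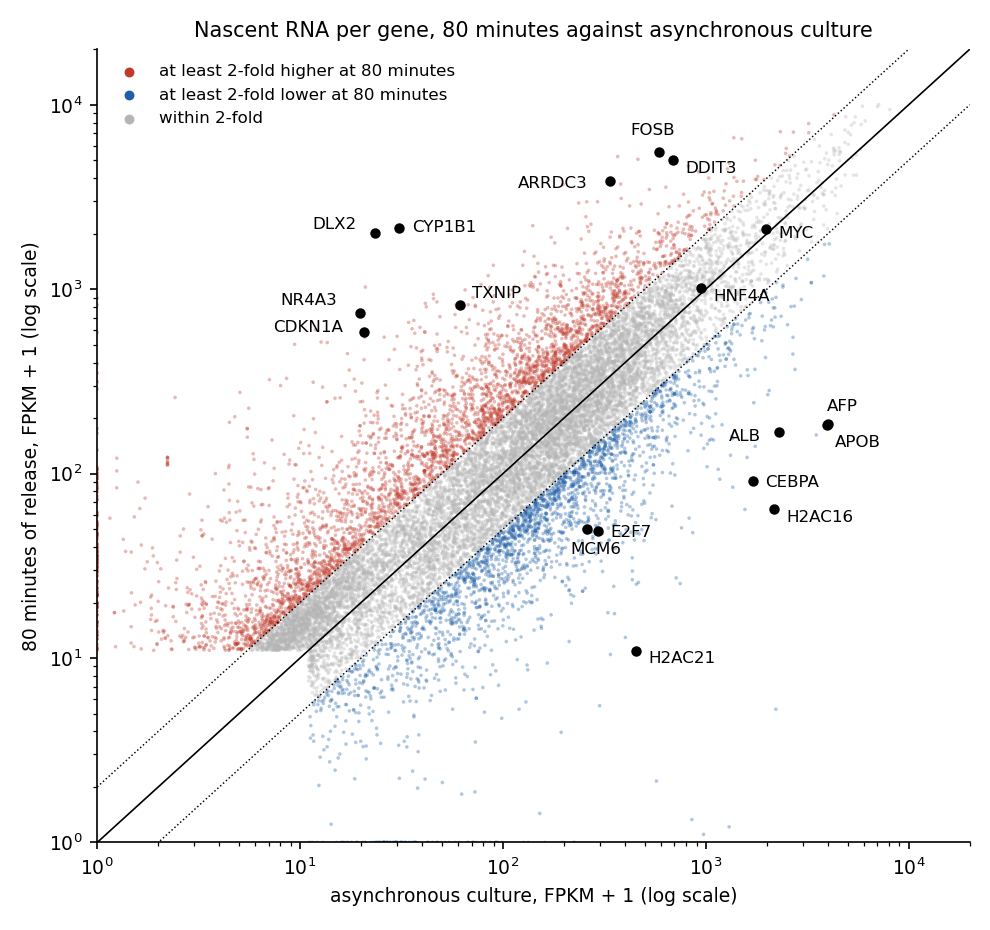
Level of each of the 17908 genes at 80 minutes (vertical axis) against the asynchronous culture (horizontal axis), both in FPKM + 1 on log scales, with the solid line at equality and the dotted lines at 2-fold. Red points are the 3815 genes at least 2-fold higher at 80 minutes, blue points the 2385 at least 2-fold lower, and grey points lie between; black points are genes named in the text, with DLX2 (2019.5 FPKM against 22.3 FPKM) far above the line and H2AC21 (9.92 FPKM against 452 FPKM) far below it.

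The genes furthest above the asynchronous level included regulators of development and of growth arrest. Restricted to coding and lncRNA genes whose higher value reached 100 FPKM and whose lower value reached 5 FPKM, the 15 with the widest upward gap were 20.7-fold to 86.6-fold higher. DLX2, a homeobox transcription factor of forebrain and craniofacial development, stood at 2019.5 FPKM at 80 minutes against 22.3 FPKM in the asynchronous culture, an 86.6-fold difference. CYP1B1, a cytochrome P450 induced through the aryl hydrocarbon receptor, was at 2142 FPKM against 29.8 FPKM. PTHLH, which encodes parathyroid hormone-related protein, was at 501 FPKM against 8.40 FPKM. The same group held ZIC2, a zinc finger developmental regulator, at 602 FPKM against 10.9 FPKM, and ACHE, acetylcholinesterase, at 516 FPKM against 11.7 FPKM. S100A6, a small calcium-binding protein, was at 513 FPKM at 80 minutes against 12.6 FPKM. TUBB3, a beta-tubulin best known from neurons, was at 937 FPKM against 44.4 FPKM.

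The remaining members included the nuclear receptor NR4A3, the kinase inhibitor CDKN1A, the zinc finger regulator SP9, the small GTPase GEM and HEY1, a repressor activated by Notch signalling. With LY6G6C, LOC414300 and BAZ2B-AS1, they were 20.8-fold (HEY1) to 37.8-fold (NR4A3) higher. The use of strand in counting is not given, so the value of the antisense gene BAZ2B-AS1 may hold reads of an overlapping gene. Across the other release times, which are set against the same asynchronous column, 15 of 15 were already above it at 0 minutes and 15 of 15 still were at 300 minutes. For 13 of 15 the level at 300 minutes was below that at 80 minutes, and for 6 of 15 the level at 80 minutes was the highest of the 6 release times. The 15 were picked for a high level at 80 minutes over the asynchronous one, which favours all of these counts. DLX2 was at 578 FPKM at 0 minutes, 723 FPKM at 40 minutes, 2019.5 FPKM at 80 minutes, 1776 FPKM at 105 minutes, 730.4 FPKM at 165 minutes and 173 FPKM at 300 minutes. The DLX2 level was thus highest at 80 minutes. S100A6 was among the exceptions, with 435 FPKM at 0 minutes and 815 FPKM at 300 minutes.

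The promoter of DLX2 is shown because it had the widest gap among genes within those limits on level, and that of TXNIP as the best-known member of the arrestin-domain list. Both come from RefSeq (GRCh38.p14), whereas the authors' build is hg19, and cover the 250 bases before the start of the gene. DLX2 lies on the minus strand at chr2:172102901-172103150 and TXNIP on the minus strand at chr1:145996580-145996829. Capitals mark matches on either strand to 7 short motifs, none of which contains another. These are the TATA box TATAAA, the NF-Y box CCAAT, the cAMP response element TGACGTCA, the AP-1 site TGACTCA, the cell cycle element TTTGAA, the E2F-type site TTTCGCGC and the E-box CACGTG. In DLX2 they are CACGTG at -45 and CCAAT, read on the opposite strand, at -77, counted from the start. In TXNIP they are CCAAT at -105 and, on the opposite strand, at -140.
DLX2: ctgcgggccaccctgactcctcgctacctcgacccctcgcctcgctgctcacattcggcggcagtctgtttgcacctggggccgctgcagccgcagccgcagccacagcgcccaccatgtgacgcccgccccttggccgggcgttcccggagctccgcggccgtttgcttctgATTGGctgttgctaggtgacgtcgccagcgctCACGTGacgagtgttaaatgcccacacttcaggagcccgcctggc
TXNIP: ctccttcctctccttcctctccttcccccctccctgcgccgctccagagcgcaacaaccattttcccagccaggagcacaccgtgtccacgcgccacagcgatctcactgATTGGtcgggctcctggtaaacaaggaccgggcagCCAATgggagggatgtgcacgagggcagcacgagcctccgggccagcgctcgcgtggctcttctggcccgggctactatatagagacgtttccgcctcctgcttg

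The arrestin-domain family, which controls glucose uptake and receptor turnover, had a list median 3.15 log2 units above the all-gene median, with 4 of 5 members higher. TXNIP, which binds thioredoxin and limits glucose uptake, was at 824 FPKM at 80 minutes against 60.2 FPKM in the asynchronous culture. ARRDC3, an adaptor that lowers adrenergic receptor signalling, was at 3847 FPKM against 335 FPKM. ARRDC4, a close relative of TXNIP, was at 23.0 FPKM against 1.25 FPKM. The list's median is the value of ARRDC4, which reached 10 FPKM at 80 minutes alone and so had to differ upward. With a pseudocount of 10 FPKM that median was 1.33. ARRDC1 was within 2-fold, at 219.8 FPKM against 151 FPKM. Through the release TXNIP stood at 334 FPKM at 0 minutes, 347 FPKM at 40 minutes, 824 FPKM at 80 minutes, 1223 FPKM at 105 minutes, 1620.2 FPKM at 165 minutes and 2422.5 FPKM at 300 minutes. Unlike DLX2, TXNIP was highest at the last time.

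Targets of p53, the regulator that halts the cycle after damage or delayed mitosis, had a relative median of 0.98, and 16 of 25 compared members were higher and 0 lower. CDKN1A, the inhibitor of cyclin-dependent kinases also called p21, was at 588 FPKM at 80 minutes against 19.8 FPKM in the asynchronous culture, a 28.4-fold difference. BBC3 and PMAIP1, which encode the apoptosis proteins PUMA and NOXA, were at 479 FPKM against 36.4 FPKM and at 459 FPKM against 46.4 FPKM. TP53INP1, a p53-induced nuclear protein, was at 413 FPKM against 82.1 FPKM. MDM2, which marks p53 for destruction, was within 2-fold, at 320.0 FPKM against 492 FPKM. CDKN1A was at 333 FPKM at 0 minutes, 642 FPKM at 40 minutes, 645 FPKM at 105 minutes, 369 FPKM at 165 minutes and 122 FPKM at 300 minutes. The list's relative median at the 6 release times in order was 0.52, 0.90, 0.98, 0.84, 0.55 and 0.45.

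The homeobox genes of the HOX clusters and the DLX family, which set positional identity in the embryo, had a relative median of 1.36. Of 37 listed genes 23 reached the limit, and 16 of those were higher and 0 lower. The other 14 stayed under 10 FPKM in both columns, and members that reached 10 FPKM at 80 minutes alone had to differ upward. HOXA5 was at 494 FPKM at 80 minutes against 45.0 FPKM, and HOXA11 was at 111 FPKM against 8.44 FPKM. DLX1, the neighbour of DLX2 in the genome, was at 83.4 FPKM against 4.73 FPKM. HOXC8 differed little, at 141 FPKM against 162 FPKM. The relative median was 0.23 at 0 minutes, 0.27 at 40 minutes, 1.36 at 80 minutes, 1.52 at 105 minutes, 0.69 at 165 minutes and -0.60 at 300 minutes, so the compared members stood highest at 80 and 105 minutes. They entered by their level at 80 minutes or in the asynchronous culture, which favours 80 minutes over the other release times.

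Immediate early genes, the short-lived regulators switched on within minutes of a stimulus, had a relative median of 0.89, with 22 of 39 higher and 1 lower as deposited, and 18 higher and 2 lower in relative counts. The NR4A nuclear receptors stood well above the asynchronous level: NR4A1 was at 1347 FPKM against 124 FPKM, NR4A2 at 2933 FPKM against 235 FPKM, and NR4A3 at 742 FPKM against 18.7 FPKM. EGR2, a zinc finger activator, was at 279 FPKM against 17.8 FPKM. KLF4, a zinc finger regulator of growth arrest and differentiation, was at 2976 FPKM against 292 FPKM. FOSB, an AP-1 subunit, was at 5556 FPKM against 590.0 FPKM. ATF3, a stress-induced repressor, was at 2182 FPKM against 259.8 FPKM.

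Not all members of that list stood high. FOS was at 1803 FPKM at 80 minutes against 993 FPKM in the asynchronous culture, within 2-fold. EGR1, at 1672 FPKM against 2067 FPKM, and JUN, at 5164 FPKM against 5246 FPKM, were near or below the asynchronous level. KLF2, a Kruppel-like factor of endothelial and immune cells, was the 1 lower member as deposited, at 144 FPKM against 1017 FPKM. FOS had been higher before, with 3819.5 FPKM at 0 minutes, 5363 FPKM at 40 minutes, 1078 FPKM at 105 minutes, 455 FPKM at 165 minutes and 141 FPKM at 300 minutes. NR4A3 followed the same order in time, with 1032 FPKM at 0 minutes, 1802 FPKM at 40 minutes and 29.7 FPKM at 300 minutes. For both genes 80 minutes lay on the descending side of a level that was highest at 40 minutes.

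Targets of NF-kB, the inflammatory transcription factor, had a relative median of 0.95, with 11 of 20 higher and 1 lower. TNFAIP3, the deubiquitinase A20 that restrains NF-kB, was at 2975 FPKM at 80 minutes against 258 FPKM in the asynchronous culture. BIRC3, an inhibitor of apoptosis, was at 309 FPKM against 19.2 FPKM, and NFKB2, an NF-kB subunit, was at 586 FPKM against 61.5 FPKM. The chemokine genes CXCL1, at 1087 FPKM against 2224 FPKM, and CXCL8, at 2697 FPKM against 3919 FPKM, stood below the asynchronous level. Interferon-stimulated genes had a relative median of 0.67, with 10 of 22 higher and 2 lower, and it was 0.37 with a pseudocount of 10 FPKM and 1.56 at a limit of 100 FPKM. ISG15, a ubiquitin-like modifier, was at 888 FPKM against 44.5 FPKM and IRF1, an interferon regulatory factor, at 1200.1 FPKM against 163 FPKM. IFITM3, a membrane protein that blocks virus entry, was at 3.90 FPKM against 35.4 FPKM.

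Genes of the cAMP response and neurosecretion had a relative median of 0.99, with 6 of 10 compared members higher and 2 lower. That median was 4.2 at a limit of 100 FPKM and 2.58 in genes with 1 distinct value, fewer members being left. PTHLH belonged to the upward extremes above. VGF, a neuropeptide precursor, was at 258 FPKM at 80 minutes against 1.42 FPKM in the asynchronous culture, a wider gap than that of DLX2 but with the lower value under 5 FPKM. VGF and PTHLH reached 10 FPKM at 80 minutes alone and so had to differ upward. The list for the aryl hydrocarbon receptor, a sensor of xenobiotics, had a median 0.23 above all genes, with 3 of 7 higher. Relative to genes of the same length class the median was 0.68. That is the value of the receptor gene AHR, annotated at 429.8 kb and so set against the genes over 200 kb. CYP1A1, its classical target, was at 2967 FPKM against 819.6 FPKM. TIPARP, a feedback inhibitor of the receptor, was at 3364 FPKM against 981 FPKM. The receptor gene AHR itself was close to equal, at 1240.2 FPKM against 1407 FPKM.

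**Figure D2:**
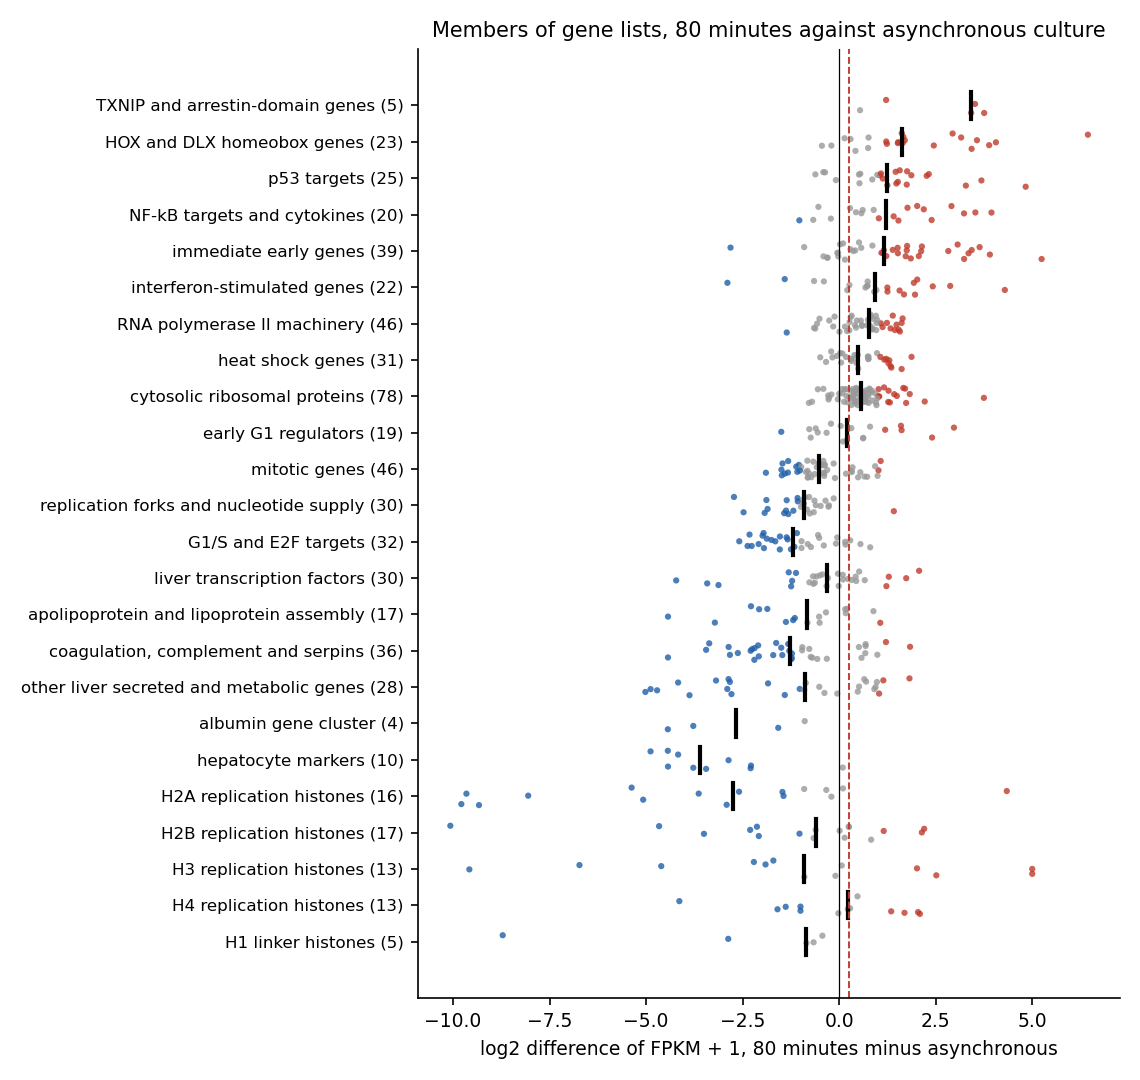
Log2 difference of each compared gene, 80 minutes over asynchronous on FPKM + 1 (horizontal axis), for 24 gene lists (rows, with the number compared in brackets). Red points are at least 2-fold higher at 80 minutes, blue points at least 2-fold lower and grey points between; the black bar is the list median and the red dashed line the all-gene median of 0.26, with the arrestin-domain list 3.15 above that line and the hepatocyte markers -3.88 relative to it.

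Genes of the G1/S transition are the targets of E2F that prepare DNA synthesis. Among the cell cycle lists other than histones, they lay furthest below the asynchronous culture. Their relative median was -1.47, with 18 of 32 lower and 0 higher. MCM6, a subunit of the replicative helicase, was at 49.2 FPKM at 80 minutes against 259 FPKM in the asynchronous culture. E2F7, a repressing member of the E2F family, was at 48.1 FPKM against 294 FPKM. Its relative E2F1 was at 303 FPKM against 879 FPKM, and CDC6, which loads the helicase, was at 195 FPKM against 616 FPKM. UHRF1, which maintains DNA methylation, was at 48.9 FPKM against 249 FPKM. Exceptions were MCM7, another helicase subunit, at 1364 FPKM against 932 FPKM, and CCNE2, cyclin E2, at 348 FPKM against 199.5 FPKM, both within 2-fold.

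The list lay below the asynchronous level at all 6 release times. Its relative median was -1.23 at 0 minutes, -1.26 at 40 minutes, -1.47 at 80 minutes, -1.78 at 105 minutes, -1.75 at 165 minutes and -1.23 at 300 minutes. MCM6 was at 36.3 FPKM at 0 minutes and 103 FPKM at 300 minutes. The promoter of MCM6 is shown because E2F sites are the known mark of this class. It lies on the minus strand at chr2:135876444-135876693 (RefSeq, GRCh38.p14, 250 bases before the start). TTTCGCGC, a form of the E2F site, matched on the opposite strand at -86 and -148, and CCAAT on the opposite strand at -58 and -100, all in capitals.
MCM6: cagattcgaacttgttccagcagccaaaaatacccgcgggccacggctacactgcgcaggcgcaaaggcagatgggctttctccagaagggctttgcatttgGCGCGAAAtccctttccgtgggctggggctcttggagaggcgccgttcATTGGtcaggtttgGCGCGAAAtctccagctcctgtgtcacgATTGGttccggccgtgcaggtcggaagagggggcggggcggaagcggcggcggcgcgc

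Genes of replication forks and nucleotide supply had a relative median of -1.19, with 12 of 30 lower and 1 higher as deposited, and 21 lower and 1 higher relative to the all-gene median. POLA1, the catalytic subunit of DNA polymerase alpha, was at 35.6 FPKM at 80 minutes against 241 FPKM in the asynchronous culture. TYMS, thymidylate synthase, was at 78.3 FPKM against 441 FPKM. RRM2, the S phase subunit of ribonucleotide reductase, was at 387 FPKM against 1402 FPKM. TK1, thymidine kinase, was at 93.7 FPKM against 360.0 FPKM. RPA3, the small subunit of the single-strand binding protein, was the 1 higher member at 47.7 FPKM against 17.3 FPKM. PCNA, the sliding clamp, was within 2-fold at 925 FPKM against 1184 FPKM, having stood at 180.4 FPKM at 0 minutes and 314 FPKM at 40 minutes. TYMS stayed low through the release, at 51.5 FPKM at 0 minutes and 95.3 FPKM at 300 minutes.

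Mitotic genes stood below the asynchronous level by less. Their relative median was -0.77, with 11 of 46 lower and 2 higher as deposited, and 18 lower and 0 higher relative to the all-gene median. UBE2C, a ubiquitin-conjugating enzyme of the anaphase-promoting complex, was at 188 FPKM at 80 minutes against 704 FPKM, and CDK1, the mitotic kinase, was at 215 FPKM against 607 FPKM. The 2 higher members were CDC20, an activator of that complex, at 1064 FPKM against 526 FPKM, and CDC25B, a phosphatase that activates CDK1, at 505 FPKM against 239.5 FPKM. CCNB1, cyclin B1, was at 701 FPKM against 561 FPKM, with 691 FPKM at 40 minutes and 171 FPKM at 300 minutes. The list's relative median was -0.24, -0.35, -0.77, -1.29, -1.68 and -1.86 at the 6 release times in order, whereas as deposited it was -0.64, -0.57, -0.51, -1.06, -1.54 and -1.75. On both scales the 3 times after 80 minutes lay further below the asynchronous culture than 80 minutes did, while the order of the earlier times turned with the scale. Cohesin and condensin genes, which shape chromosomes, had a relative median of -0.91, with 6 of 18 lower and 1 higher.

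Regulators of early G1 were near the all-gene median, at -0.07, with 5 of 19 higher and 1 lower as deposited, and 4 higher and 3 lower in relative counts. CDKN2C, an inhibitor of the cyclin D kinases, was at 634 FPKM at 80 minutes against 80.0 FPKM in the asynchronous culture, and MXD4, an antagonist of MYC, was at 1123 FPKM against 211 FPKM. RBL1, a retinoblastoma relative, was the lower member at 55.7 FPKM against 159.6 FPKM. CCND1, cyclin D1, was within 2-fold at 1881 FPKM against 2766 FPKM. MYC was close to equal at 2111 FPKM against 1969.6 FPKM. MYC stood at 1523 FPKM at 0 minutes, 3332 FPKM at 105 minutes, 4341 FPKM at 165 minutes and 3375 FPKM at 300 minutes, so its match with the asynchronous level held at 80 minutes and not at the later times.

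**Figure D3:**
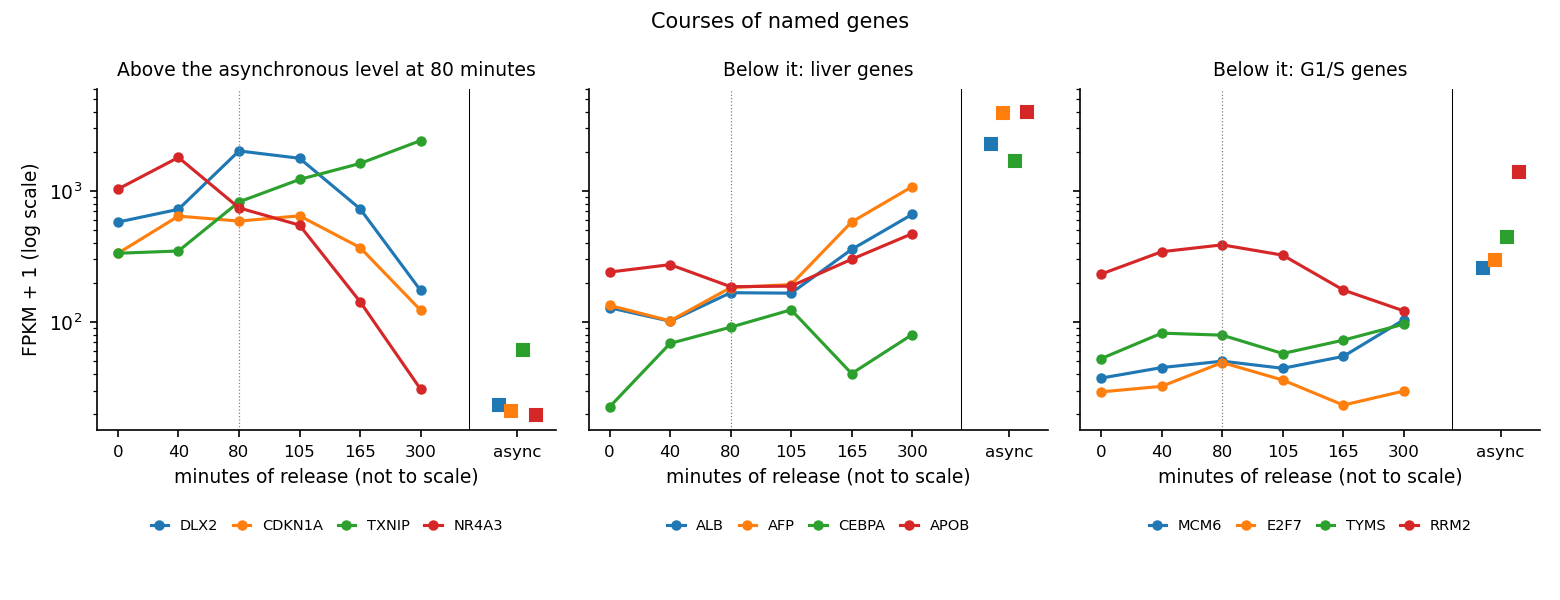
Level in FPKM + 1 (vertical log axis) of 12 named genes at the 6 release times (circles joined by lines, evenly spaced and not to scale) and in the asynchronous culture (squares at the right of each panel); the dotted line marks 80 minutes. In the left panel DLX2, CDKN1A, TXNIP and NR4A3 lie above their squares at 80 minutes, in the middle panel ALB, AFP, CEBPA and APOB lie below theirs, and in the right panel MCM6, E2F7, TYMS and RRM2 lie below theirs at all 6 release times.

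Replication-dependent histone genes, which are clustered in the genome and supply chromatin proteins for S phase, differed in both directions, more often downward. Of 64 compared, 31 were lower at 80 minutes (48.4%, against 13.3% of all compared genes). Another 12 were higher (18.8%, close to the 21.3% of all compared genes). Linker histone H1 genes had a relative median of -1.11 (2 of 5 lower, 0 higher), and H2A genes had one of -3.02 (11 of 16 lower, 1 higher). H2B genes had a relative median of -0.87, with 7 of 17 lower and 3 higher, and H3 genes one of -1.17, with 6 of 13 lower and 4 higher. H4 genes lay at the all-gene median, at -0.04, with 5 of 13 lower and 4 higher.

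The low members were far down. H2AC21 was at 9.92 FPKM at 80 minutes against 452 FPKM in the asynchronous culture, and H2AC16 was at 63.2 FPKM against 2164 FPKM. H3C13 was at 62.9 FPKM against 1558 FPKM. Under 5 FPKM at 80 minutes were 10 of the 64, and 4 of these were listed at 0. H2AC20 was listed at 0 at all 6 release times against 803 FPKM in the asynchronous culture. H1-5 was at 4.28 FPKM against 2212 FPKM. H2BC17 was at 0.214 FPKM against 1302 FPKM.

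Other copies of the same proteins stood as high as or above the asynchronous culture. H4C1 was at 1227 FPKM at 80 minutes against 379.8 FPKM, and H4C16 was at 1779 FPKM against 432 FPKM. H2BC5 was at 2054 FPKM against 466 FPKM, and H2BC21 was at 1654 FPKM against 359.6 FPKM. H2AC6 was close to equal at 3779.9 FPKM against 3532 FPKM, as was H3C4 at 2448 FPKM against 2338 FPKM. Among the genes always reported, H1-4 was at 1129.6 FPKM against 1789 FPKM and H3C2 at 425 FPKM against 1969 FPKM. Histone genes are near-identical copies that can share reads, so the value of a single copy is uncertain. H3C14 and H3C15 had identical values (174 FPKM against 4.49 FPKM), and H2AC18 (1.15 FPKM against 569.8 FPKM) and its neighbour H2AC19 (837 FPKM against 40.4 FPKM), which encode the same protein, stood in opposite directions.

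Within the release, 80 minutes was the highest time for 30 of the 64 histone genes and 105 minutes for 16. The all-gene median as deposited was also highest at 80 minutes (0.26) and next at 105 minutes (0.24). The share of all genes highest at these times is not given here. H3C2 was at 1.06 FPKM at 0 minutes, 6.77 FPKM at 40 minutes, 425 FPKM at 80 minutes, 159 FPKM at 105 minutes, 100.4 FPKM at 165 minutes and 1.73 FPKM at 300 minutes. The relative median of the H2A genes was -7.16 at 0 minutes, -3.02 at 80 minutes and -5.88 at 300 minutes. That of the H4 genes was -2.03 at 0 minutes, -0.04 at 80 minutes and -1.49 at 300 minutes. Histone genes whose transcription is not tied to replication lay at the all-gene median, at -0.02. Of 11 members 3 were higher and 2 lower as deposited, and 2 in each direction in relative counts. Among them H2AJ was at 1059.6 FPKM against 77.0 FPKM and H3-3A, which encodes histone H3.3, was at 2267 FPKM against 639.6 FPKM. The lower members were H1-10, a linker histone, at 42.4 FPKM against 171 FPKM, and MACROH2A1, a large H2A variant of silent chromatin, at 283 FPKM against 794 FPKM.

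**Figure D4:**
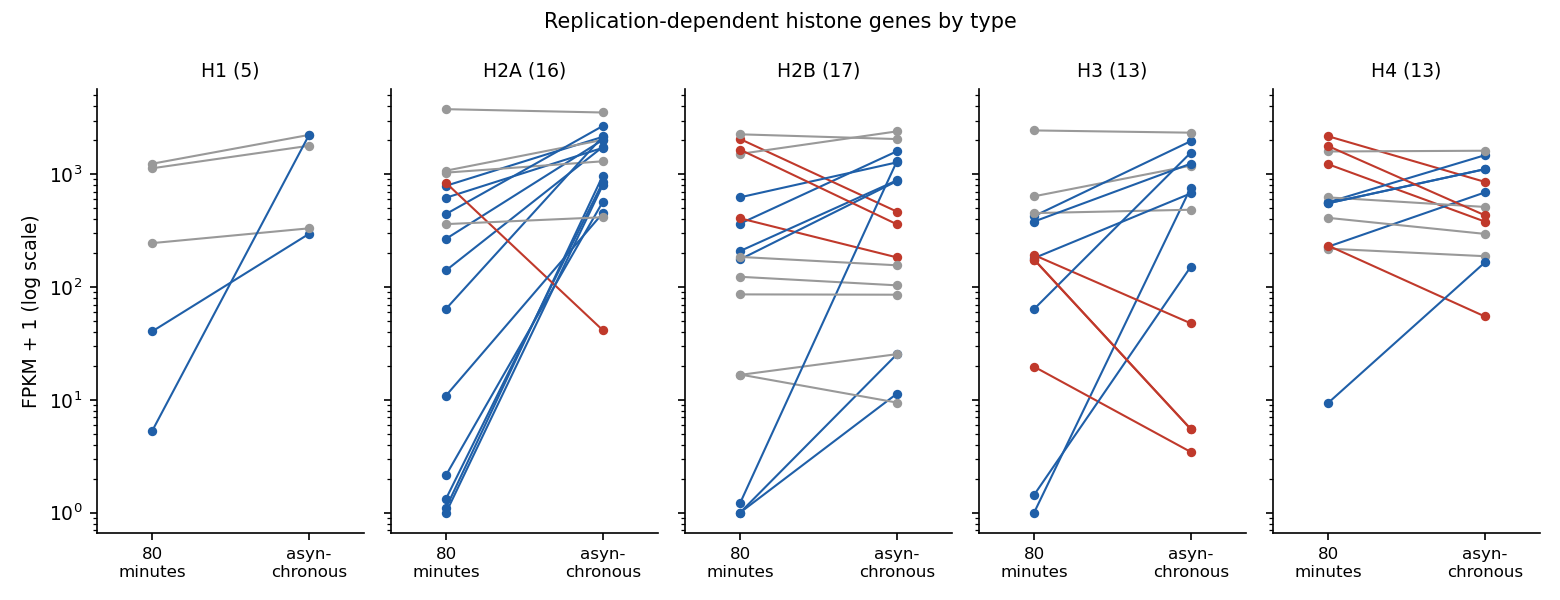
Level in FPKM + 1 (vertical log axis) of 64 replication-dependent histone genes at 80 minutes (left of each panel) and in the asynchronous culture (right), with a line joining the values of 1 gene, in 5 panels by protein. Red lines are genes at least 2-fold higher at 80 minutes, blue lines at least 2-fold lower and grey lines between; 11 of the 16 H2A lines are blue, whereas the H4 panel holds 5 blue and 4 red lines.

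The promoters of H3C13 and H2AC16 are shown as those of the low histone genes. Both come from RefSeq (GRCh38.p14), with the 250 bases before the start. H3C13 lies on the minus strand at chr1:149813694-149813943 and holds TATAAA at -31, CCAAT at -53 and -91, and TTTGAA at -75 and, on the opposite strand, at -209. H2AC16 lies on the plus strand at chr6:27865067-27865316 and holds TTTCGCGC at -50, CCAAT at -68, -132 and, on the opposite strand, -96, and TGACGTCA, the cAMP response element, at -153. Capitals mark these matches.
H3C13: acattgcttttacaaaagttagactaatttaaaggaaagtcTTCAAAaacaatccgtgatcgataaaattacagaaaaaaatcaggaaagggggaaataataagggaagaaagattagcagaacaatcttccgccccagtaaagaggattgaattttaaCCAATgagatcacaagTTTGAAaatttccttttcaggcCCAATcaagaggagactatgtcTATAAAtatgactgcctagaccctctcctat
H2AC16: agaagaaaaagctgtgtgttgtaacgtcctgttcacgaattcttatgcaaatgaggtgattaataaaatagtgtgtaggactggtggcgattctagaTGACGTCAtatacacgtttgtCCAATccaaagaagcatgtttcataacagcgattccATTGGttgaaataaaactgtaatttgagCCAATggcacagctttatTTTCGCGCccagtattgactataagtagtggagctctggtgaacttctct

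Hepatocyte markers, the defining genes of the tissue from which the line derives, were the list furthest below the asynchronous level, with a relative median of -3.88 and 9 of 10 lower. Their summed level was 2381 FPKM at 80 minutes against 17380 FPKM in the asynchronous culture, so the markers of the labelled cell type were present in both columns. HNF4A, described with the transcription factors, was the member that was not lower. ALB, albumin, was at 166 FPKM against 2295 FPKM. AFP, alpha-fetoprotein, was at 182 FPKM against 3964 FPKM, a 21.7-fold gap. APOB, the scaffold protein of low-density lipoprotein, was at 185 FPKM against 4016 FPKM. APOA1, the main protein of high-density lipoprotein, was at 58.2 FPKM against 288 FPKM.

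ALB, AFP and APOB had not returned to the asynchronous level by the last time, 300 minutes. AFP was at 133 FPKM at 0 minutes, 101 FPKM at 40 minutes, 192 FPKM at 105 minutes, 579 FPKM at 165 minutes and 1078 FPKM at 300 minutes. The relative median of the marker list was -3.27, -3.12, -3.88, -3.68, -3.05 and -2.33 at the 6 release times in order. As deposited it was -3.68, -3.33, -3.61, -3.45, -2.92 and -2.22, so which of 0 and 80 minutes was lowest depended on the scale. FGA, fibrinogen alpha, took another course, with 535 FPKM at 0 minutes, 1197 FPKM at 40 minutes and 161 FPKM at 80 minutes against 3502 FPKM in the asynchronous culture. The promoter of AFP, the most highly transcribed marker beside APOB in the asynchronous column, is shown for comparison with the histone promoters. It lies on the plus strand at chr4:73435971-73436220 (RefSeq, GRCh38.p14, 250 bases before the start). TATAAA matched at -29 and CCAAT, on the opposite strand, at -125, both in capitals.
AFP: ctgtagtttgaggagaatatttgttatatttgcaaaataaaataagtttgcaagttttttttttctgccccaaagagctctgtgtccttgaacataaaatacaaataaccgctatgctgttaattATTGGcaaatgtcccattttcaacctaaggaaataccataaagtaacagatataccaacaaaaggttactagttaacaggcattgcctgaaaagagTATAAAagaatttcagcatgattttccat

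Coagulation, complement and serpin genes had a relative median of -1.53, with 21 of 36 lower and 2 higher as deposited, and 25 lower and 1 higher in relative counts. Besides FGA, fibrinogen beta (FGB) was at 547 FPKM at 80 minutes against 2688 FPKM in the asynchronous culture and fibrinogen gamma (FGG) was at 281 FPKM against 2051 FPKM. SERPINA1, the inhibitor of neutrophil elastase, was at 105 FPKM against 1149.6 FPKM. MASP2, a protease of the lectin pathway of complement, was higher at 43.0 FPKM against 11.3 FPKM. Genes of lipoprotein assembly had a relative median of -1.09, with 8 of 17 lower and 1 higher as deposited, and 9 lower and 0 higher in relative counts. APOA2 was at 108 FPKM against 1014 FPKM. Other secreted and metabolic liver genes had a relative median of -1.15, with 13 of 28 lower and 3 higher as deposited, and 15 lower and 1 higher in relative counts. That median depended on how low genes were treated, at -0.40 with no limit and -3.38 at a limit of 100 FPKM. TTR, the thyroxine carrier transthyretin, was at 58.0 FPKM against 429 FPKM, and ORM2, an acute phase protein, was at 9.45 FPKM against 338 FPKM.

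The same limits on level, 100 FPKM for the higher and 5 FPKM for the lower value, gave the 15 coding or long noncoding genes with the widest downward gap (16.3-fold to 41.5-fold), of which 4 were histone genes. Genes under 5 FPKM at 80 minutes, such as H1-5, H2BC17, H2AC18 and H2AC20 above, are left out by that limit and had wider gaps. AHSG, fetuin A, at 24.3 FPKM against 747 FPKM, ITIH2, a plasma protein that binds hyaluronan, at 26.2 FPKM against 713 FPKM, and TF, transferrin, at 46.8 FPKM against 861 FPKM were among the others. GPC3, a glypican of the fetal liver and of hepatoma, was at 24.1 FPKM at 80 minutes against 453 FPKM. None of the 15 was above the asynchronous level at 0 or at 300 minutes. They were picked for a high asynchronous level over that at 80 minutes, which favours that outcome. HULC, a long noncoding RNA named from liver cancer, was close behind at 83.4 FPKM against 1357 FPKM.

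Transcription factors of the liver differed in both directions, with a relative median of -0.57. Of 30 compared, 7 were lower (23.3%, against 13.3% of all compared genes). Only 4 were higher (13.3%, under the 21.3% of all compared genes). CEBPA, a factor of hepatocyte differentiation, was at 90.3 FPKM at 80 minutes against 1702 FPKM in the asynchronous culture. NR1H4, the bile acid receptor, was at 13.5 FPKM against 154 FPKM, and ONECUT1, also called HNF6, was at 154 FPKM against 1351 FPKM. CEBPB, a relative of CEBPA induced in the acute phase, was at 1303 FPKM against 391 FPKM, and GATA6, a zinc finger factor of endoderm, was at 1175 FPKM against 504 FPKM. HNF4A, the nuclear receptor central to hepatocyte identity, was near equal at 1009 FPKM against 947 FPKM. FOXA1, a pioneer factor, was within 2-fold at 1069 FPKM against 1656 FPKM, having stood at 214 FPKM at 0 minutes and standing at 277 FPKM at 300 minutes.

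Among general cellular machinery, genes of RNA polymerase II and its partners stood highest, with a relative median of 0.50, or 0.25 within length classes. Of 46 members 11 were higher (23.9%, close to the 21.3% of all genes) and 1 was lower. POLR2A, the largest polymerase subunit, was at 1385 FPKM at 80 minutes against 495 FPKM in the asynchronous culture. CDK9, the kinase that releases paused polymerase, was at 1893 FPKM against 637 FPKM, and its inhibitor HEXIM1 was at 2533 FPKM against 1007 FPKM. MNAT1, a subunit of the TFIIH kinase, was the lower member at 43.8 FPKM against 114 FPKM. Splicing factors and hnRNPs had a relative median of 0.17, with 4 of 51 higher and 0 lower as deposited and 1 in each direction in relative counts.

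Ribosomal protein genes of the cytosol had a relative median of 0.29, with 15 of 78 higher and 0 lower as deposited, and 11 higher and 1 lower in relative counts. FAU, which encodes a ribosomal protein fused to a ubiquitin-like one, was at 796 FPKM at 80 minutes against 58.4 FPKM, RPS21 at 267 FPKM against 56.9 FPKM and RPS28 at 305 FPKM against 85.4 FPKM. These genes are short, and relative to genes of the same length class their median was -0.06. Ribosome biogenesis genes had a relative median of 0.12, with 7 of 52 higher and 2 lower as deposited and 3 higher and 2 lower in relative counts. Respiratory chain genes had one of 0.22, or -0.11 within length classes, with 8 of 64 higher as deposited, 4 in relative counts and 0 lower in both. Mitochondrial ribosomal proteins had one of -0.30, with 8 of 77 in each direction as deposited and 8 higher and 16 lower in relative counts. Proteasome subunits lay at -0.25 (1 of 31 higher, 2 lower) and aminoacyl-tRNA synthetases at -0.12 (1 of 20 in each direction as deposited, 1 higher and 2 lower in relative counts). As deposited, none of these 6 lists held a share of higher members above the 21.3% of all genes.

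Stress pathways were mixed. Heat shock genes had a relative median of 0.22, with 9 of 31 higher and 0 lower (6 and 0 in relative counts). BAG3, a co-chaperone, was at 1059.9 FPKM at 80 minutes against 289 FPKM, and HSPH1, an HSP110 chaperone, was at 1136 FPKM against 370.0 FPKM. Genes of the unfolded protein and ATF4 response had a relative median of 0.18, or -0.16 within length classes, with 10 of 26 higher and 3 lower. DDIT3, the stress factor CHOP, was at 4999 FPKM against 691 FPKM, and DDIT4, an inhibitor of mTOR, was at 782 FPKM against 94.4 FPKM. PHGDH, the entry enzyme of serine synthesis, was at 51.8 FPKM against 125 FPKM. The AKR1 and NRF2 list of antioxidant genes lay at -0.72, with 8 of 22 lower and 2 higher as deposited, and 9 lower and 1 higher in relative counts. GCLM, a subunit of the enzyme of glutathione synthesis, was at 316 FPKM against 924 FPKM.

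Genes of cholesterol and fatty acid synthesis lay at -0.04, with 6 of 34 higher and 3 lower. INSIG1 and INSIG2, which retain the sterol sensor in the endoplasmic reticulum, were at 2003 FPKM at 80 minutes against 584 FPKM and at 482 FPKM against 83.5 FPKM. ACACA, acetyl-CoA carboxylase, was at 65.0 FPKM against 220.4 FPKM. Tubulin genes, whose product nocodazole binds, lay at -0.24, with 5 of 16 higher and 4 lower as deposited and 4 in each direction in relative counts. Beside TUBB3, TUBB2A was at 2143 FPKM against 426 FPKM, whereas TUBB was at 437 FPKM against 1166 FPKM and TUBG1, gamma-tubulin, at 52.8 FPKM against 235 FPKM.

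Genes of the nuclear pore and envelope, which re-form after mitosis, lay at -0.50, with 3 of 36 higher and 4 lower as deposited and 1 higher and 8 lower in relative counts. LMNA, lamin A/C, was at 1085 FPKM at 80 minutes against 136 FPKM, and NUP210, a membrane nucleoporin, was at 24.9 FPKM against 195 FPKM. Integrin, adhesion and matrix genes lay at -0.17, or 0.19 within length classes, with 4 of 27 higher and 2 lower as deposited and 3 in each direction in relative counts, and CD44, a hyaluronan receptor, was at 197 FPKM against 23.3 FPKM. Actin and SRF targets lay at -0.22 (5 of 29 higher and 3 lower as deposited, 2 higher and 6 lower in relative counts), with ACTB, beta-actin, close to equal at 434 FPKM against 470.2 FPKM. YAP-TEAD targets lay at -0.36, with 2 of 19 in each direction as deposited and 2 higher and 4 lower in relative counts. MAP kinase feedback genes lay at 0.17, or -0.10 within length classes, with 2 of 16 in each direction as deposited and 1 higher and 2 lower in relative counts. ID genes and inhibitory SMADs lay at 0.41, with 2 of 11 higher and 1 lower as deposited and 0 higher and 1 lower in relative counts. The snoRNA host and long noncoding RNAs lay at -0.43, with 0 of 21 higher and 1 lower as deposited and 4 lower in relative counts, and MALAT1, an abundant nuclear RNA, was within 2-fold at 4388 FPKM against 2408 FPKM.

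Gene length separated the compared genes widely. It was known for 15602 of 16051 coding and long noncoding genes (97.2%). The median log2 difference as deposited was 0.67 for genes under 5 kb, 0.61 for 5 to 20 kb, 0.35 for 20 to 50 kb, 0.02 for 50 to 100 kb, -0.32 for 100 to 200 kb and -0.86 for genes over 200 kb. Of the 1742 genes under 5 kb, 40.0% were higher and 12.5% lower. Of the 969 over 200 kb, 1.55% were higher and 44.0% lower. The gap between the shortest and longest class was 1.53 log2 units at the limit of 10 FPKM, 0.87 at a limit of 1 FPKM and 0.67 with no limit, so its size depends on how low genes are treated. The deposited values follow the span of a transcript with its introns: 12946 of 14018 transcript pairs (92.4%) with ends within 100 bases but different exonic length had identical values.

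Among these compared genes, short genes stood apart at 80 minutes more than at the other release times. Genes entered by their level at 80 minutes or in the asynchronous culture, which favours 80 minutes among low genes. The other times were not recomputed without that limit. The median of genes under 5 kb was -0.30 at 0 minutes, 0.03 at 40 minutes, 0.67 at 80 minutes, 0.47 at 105 minutes, 0.13 at 165 minutes and 0.05 at 300 minutes. That of genes over 200 kb was -0.96, -0.90, -0.86, -0.70, -0.36 and -0.33 at the same times. All are set against the same asynchronous column. Relative to genes of the same length class, the list medians were 2.81 for the arrestin-domain list, 0.98 for HOX and DLX genes, 0.77 for p53 targets and -1.59 for G1/S genes. How elongation, processing and the length of the EU pulse enter this gap was not tested.

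**Figure D5:**
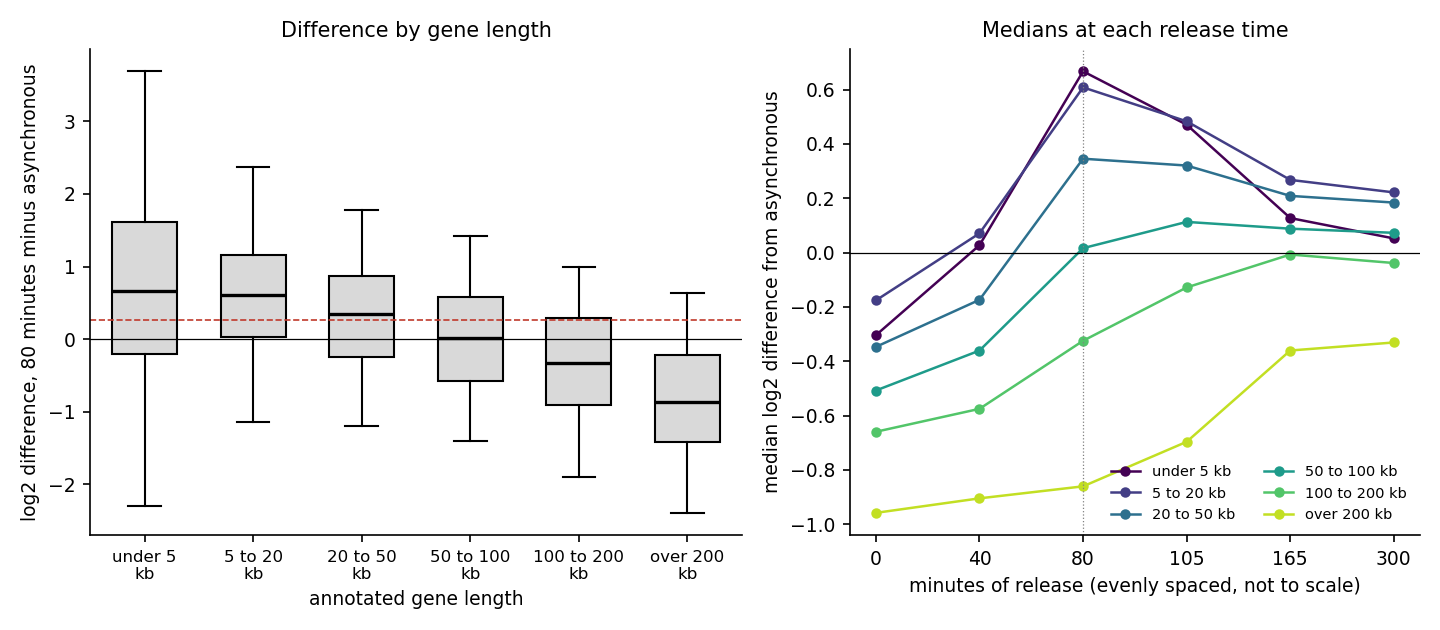
Left, log2 difference of FPKM + 1, 80 minutes over asynchronous (vertical axis), in 6 classes of gene length (horizontal axis), with boxes at the quartiles, whiskers at the 5th and 95th percentiles, a black line at the median and the red dashed all-gene median of 0.26. Right, median difference from the asynchronous culture for each length class at the 6 release times, evenly spaced; the median runs down from 0.67 under 5 kb to -0.86 over 200 kb at 80 minutes.

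Promoter motifs were counted in windows of 300 bases, 250 before and 50 after the start, for 12912 compared genes (80.4%) with a RefSeq promoter. TATAAA was present in 62 of 332 genes (18.7%) at least 4-fold lower and in 72 of 738 (9.76%) at least 4-fold higher, against 6.96% of all compared genes and 12% of the 27305 promoters in the table. Among replication histones it was present in 39 of 59 (66.1%), and CCAAT in 50 of 59 (84.7%). TTTCGCGC was present in 11 of the 332 (3.31%) and in 3 of the 738 (0.407%), against 1.01% of all compared genes and 0.546% of the table. It was present in 4 of 27 G1/S genes (14.8%) and in 11 of 59 histone genes (18.6%). These sets overlap, since histone genes such as H3C13 and H2AC16 are also among the genes at least 4-fold lower. Shares of the lower genes without histones are not given here. CACGTG ran the other way, with 4.52% of genes at least 4-fold lower, 11.5% of those at least 4-fold higher, 9.53% of all compared genes and 7.43% of the table.

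TTTGAA was present in 16.9% of genes at least 4-fold lower and 8.54% of those at least 4-fold higher, against 10.8% of all compared genes and 15.4% of the table. CCAAT was present in 38.0% of genes at least 4-fold lower and 40.0% of those at least 4-fold higher, against 37.0% of all compared genes and 35.7% of the table. TGACTCA, the AP-1 site, was present in 4.52% and 5.83%, against 3.58% of all compared genes and 4.92% of the table. TGACGTCA was present in 2.41% and 3.79%, against 3.0% of all compared genes and 1.98% of the table. A match is a description of the letters in the window and gives no measure of binding.

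Markers of other cell types were low with exceptions. Of 10 blood cell markers 7 were compared, with 4 higher and 1 lower, and the summed level was 1366 FPKM at 80 minutes against 602 FPKM in the asynchronous culture. HBB, beta-globin, was listed at 0 in both columns, and PTPRC, the leukocyte antigen CD45, was at 3.93 FPKM against 2.11 FPKM. Most of the sum was CD68, a lysosomal protein made by many cell types, at 1099 FPKM against 192 FPKM. Of 10 stromal and endothelial markers 4 were compared and 3 were higher (3 higher and 1 lower in relative counts), with a summed level of 410 FPKM against 148 FPKM. LUM, the proteoglycan lumican, gave most of it at 304 FPKM against 80.9 FPKM, and COL1A1, collagen I, was at 28.7 FPKM against 3.0 FPKM. COL1A1 and COL1A2, at 36.5 FPKM against 5.82 FPKM, reached 10 FPKM at 80 minutes alone and so had to differ upward. The part of these blood, stromal and endothelial markers in the differences above was not tested.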

How the data were processed

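Nascent, EU-labelled RNA of HUH7 cells was compared at 80 minutes of release (3 libraries) with an asynchronous culture (3 libraries). The authors deposited FPKM per RefSeq transcript in 1 pooled column per group, per the file headers. Per the submitters' processing notes, the tools were Bowtie2 2.2.9, TopHat, bcl2fastq and bedtools and the build was hg19. Their roles, the counting method, its use of strand and how libraries were pooled are given in no source used here. A moderated test with limma was planned on values per library and was not run, because each group has 1 pooled column. Read depth is unknown, so no intervals are given.

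Of 48205 transcripts, 47127 (97.8%) were matched to symbols with the RefSeq gene table of GRCh38.p14, used for names and promoters, and 1078 were not. A gene's value is the mean of the distinct values of its transcripts (1 value for 19013 genes, several for 5229). Differences are log2(FPKM + 1) at 80 minutes minus asynchronous in genes with at least 10 FPKM in either column. Gene lengths come from GENCODE 29 by symbol. The 47 gene lists held 1273 symbols, of which 1266 were present. The members and lists were chosen with earlier results of these data known. Named genes were the 15 with the widest gap in each direction (coding or long noncoding, the higher value reaching 100 FPKM and the lower 5 FPKM), the 2 widest in each direction per list, and a set always reported; other genes named were chosen after their values were seen. The motif CACGTG, medians within length classes and the length gap under other limits were added after the data were seen. Calculations used Python 3.11.15, numpy 2.4.6, pandas 2.3.3 and matplotlib 3.10.9, and were tested on simulated data.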

Additional observations from a re-analysis of the deposited data

How the results depend on the processing

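Of 14 alternatives, each value was recomputed under those that apply to it, at most 13 per value. Of the calls for named genes, 2440 were unchanged, 37 passed the 2-fold limit anew, 63 no longer passed it and 0 reversed. CDC20, CDC25B, TGIF1 and PLTP were among those that lost the call under some settings, and IER3 and MYCN among those that gained it. Of list medians, 552 moved by at most 0.25, 58 moved by more and 1 reversed: cytosolic ribosomal proteins lay at -0.060 relative to genes of the same length class. A reversal was counted only for medians at least 0.25 from the all-gene median. Some nearer medians also changed sign within length classes, among them respiratory chain (-0.11), unfolded protein (-0.16), MAP kinase feedback (-0.10) and integrin genes (0.19). The length gap of 1.53 was 1.25 with a pseudocount of 10 FPKM, 0.867 with a limit of 1 FPKM and 0.671 with no limit; the cause was not tested. With a limit of 100 FPKM, 2199 genes were higher and 1478 lower, fewer genes being compared, and a 4-fold threshold gave 1159 and 629. The share of 2-fold differences that were higher, 61.5% as deposited, was 49.4% after quantile normalization, 54.3% after upper quartile scaling and 45.1% relative to the all-gene median. The list medians that follow moved by over 1.5 times. At a limit of 100 FPKM the cAMP list lay at 4.2 (the arrestin-domain list at 3.33), the interferon list at 1.56, H2B genes at -0.45, coagulation genes at -2.45 and other liver genes at -3.38. A pseudocount of 10 FPKM put the arrestin-domain list at 1.33, the interferon list at 0.37, other liver genes at -0.74 and blood markers at 0.31. With no limit, other liver genes lay at -0.40, NF-kB targets at 0.62 and stromal markers at 0.16. In genes with 1 distinct value, immediate early genes lay at 0.42, the cAMP list at 2.58, YAP-TEAD targets at -0.71 and histone variants at 0.31. Within length classes H4 genes lay at -0.45, histone variants at -0.36, RNA polymerase II genes at 0.25 (0.50 before), immediate early genes at 0.55, tubulins at -0.53, mitochondrial ribosomal proteins at -0.56, ID genes at 0.09 and snoRNA hosts at -0.75.

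No paired analysis was possible because each group has 1 pooled column, and leaving out a replicate could not be run for the same reason. No spread between libraries, depth or unlabelled background stands behind any value, so low genes and single histone copies are the least certain.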

Other observations

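RNA classes differed in their median log2 difference, 80 minutes over asynchronous. Long noncoding RNAs had a median of 0.51, 581 of 1849 being higher and 248 lower past 2-fold, and protein-coding genes one of 0.25, with 2814 of 14202 higher and 1742 lower. MicroRNA genes lay at 0.04, with 255 of 919 higher and 263 lower, and snoRNA genes at 0.28, with 44 of 227 higher and 24 lower. The vault RNAs, small RNAs of the vault particle made by RNA polymerase III, were all higher (4 of 4), with VTRNA1-1 at 255 FPKM against 13.9 FPKM and VTRNA1-3 at 686 FPKM against 250.2 FPKM. Among long noncoding RNAs with a promoter CpG ratio, observed over expected, under 0.2, the median was -0.09, with 36 of 249 higher and 67 lower. Among those with a ratio of 0.8 to 1 it was 0.82, with 143 of 330 higher and 23 lower. For protein-coding genes the order was not the same, with 0.35 under 0.2 and 0.12 over 1.

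Gene families sharing a symbol stem, 315 with at least 8 compared members, spread from taste receptors (median -2.43, 16 of 19 lower) to HOXA genes (median 1.59, 11 of 14 higher). The protocadherin clusters PCDHGB (8 of 8 lower, median -1.39) and PCDHGA (10 of 12 lower, median -1.23), whose members share exons and can share reads, lay low, as did metallothioneins (median -1.16, 5 of 9 lower), which bind zinc and copper. MT2A was at 81.1 FPKM at 80 minutes against 231 FPKM in the asynchronous culture. Above the asynchronous level lay WNT ligands (median 1.52, 5 of 9 higher), Kruppel-like factors (1.34, 9 of 16 higher, 4 lower), DNAJB co-chaperones (1.07, 6 of 11 higher) and SOCS inhibitors of cytokine signalling (1.05, 5 of 9 higher). Over all compared genes 21.3% were higher and 13.3% lower. The WNT genes were low, with median levels of 12.5 FPKM at 80 minutes and 7.25 FPKM in the asynchronous culture. Members of any family that reached 10 FPKM at 80 minutes alone had to differ upward. Stems were ranked after their values were seen, and nothing is drawn from the order.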
